A study of Mus musculus with 24 samples.

Results

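The cytosolic ribosomal protein genes of mouse liver are described here across 4 groups of mice that differ in growth hormone receptor (GHR) signalling in hepatocytes. Members were chosen by name alone: coding features called Rpl or Rps with a number, plus Rpsa, Rplp0, Rplp1 and Rplp2. The rule gave 84 genes among 20879 coding features and 75794 features in all. Of these, 52 carry the names of large (60S) subunit proteins and 32 those of small (40S) subunit proteins. No measured value enters this rule, but the members were chosen with earlier results of these data known.

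Liver RNA came from adult C57BL/6 mice, 6 per group and 24 in all, that carried floxed Ghr alleles in every group. Every sample is labelled male, although the injection protocol also mentions females. Each animal received adeno-associated virus serotype 8 (AAV8) by tail vein at 10 to 12 weeks of age and was sampled 7 days later on a chow diet. The thyroxine-binding globulin promoter of the vectors restricts their genes to hepatocytes, and the total dose was 3.5 in every animal (in units of 1e+11 genome copies). Control mice received a Null vector and kept GHR. The aHepGHRkd mice received Cre at a dose of 1.5, the aHepGHRkd_rIGF1 mice Cre plus rat IGF1 at 2.0, and the aHepGHRkd_STAT5bCA mice Cre plus constitutively active mouse STAT5b at 0.75, with Null vector filling up the total. Control mice lack Cre as well as the loss of GHR, so an effect of Cre itself and one of GHR loss cannot be told apart. The labels name the cell type as hepatocyte, whereas the RNA was taken from liver.

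Values below come from the authors' deposited table, which holds 1 TPM (transcript abundance per unit of length, scaled to the same total in every group) per gene and group, and for 3 comparisons a fold from edgeR with its p. No value is given for a single animal. So there is no SD, sequencing depth cannot be stated, and the authors' p is the only test between animals. That p was read as adjusted for the number of features. Where 4 values of a gene are listed, they stand in the order Control, aHepGHRkd, aHepGHRkd_rIGF1, aHepGHRkd_STAT5bCA, called group order. The targeted gene Ghr had 180, 55.1, 58.4 and 49.4 TPM in group order, so part of its mRNA remained in the groups with Cre. Stat5b stood at 8.44, 10.6, 12.1 and 30.0 TPM, and Igf1 at 143, 26.2, 114 and 96.4 TPM. Igf1 was thus higher than in aHepGHRkd with STAT5bCA as well as with rIGF1, though neither difference passed the authors' test at p under 0.05. The lower Igf1 in aHepGHRkd over Control did pass it, with a ratio of 0.186 in the authors' deposited table. So did the higher Stat5b in aHepGHRkd_STAT5bCA over aHepGHRkd, with a ratio of 2.91 in the same table. Whether reads from the rat IGF1 and mouse STAT5b vectors enter the Igf1 and Stat5b values was not tested. The 8 hepatocyte markers summed to between 100564 and 117513 TPM in each group. Summed TPM of the other cell types was lower, at most 792 for 9 erythroid markers, 79.5 for 7 Kupffer cell markers, 63.8 for 5 cholangiocyte markers, 58.7 for 6 endothelial markers, 26.0 for 6 stellate markers and 6.90 for 10 lymphocyte markers.

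The cytosolic ribosome joins a 40S subunit, which reads the mRNA, to a 60S subunit, which forms the peptide bonds. Each subunit is a core of ribosomal RNA clothed in proteins that are needed in nearly equal numbers. The mRNAs of these proteins begin with an oligopyrimidine tract (TOP), through which nutrient and growth factor signalling by mTOR and Larp1 sets their translation. Hepatocytes, which secrete most plasma proteins, have many ribosomes, and GH, insulin and IGF1 are known to favour growth and protein synthesis.

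Ribosomal protein mRNAs were abundant, and 80 of the 84 genes had a mean over the 4 groups of at least 1 TPM. The median of these 80 was 399 TPM in Control, with a lowest value of 26.2 and a highest of 1082, against a median of 10.7 TPM over the 10800 coding genes with the same mean. Their medians in the other groups, in group order, were 353, 348 and 404 TPM. In each group 75 genes reached 100 TPM. By Control TPM 62 of the 84 genes lay among the 500 highest coding features and 0 among the 100 highest.

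In the large subunit the highest level belonged to Rpl10, which joins the 60S particle late in its assembly, with 1014 TPM in Control, 921 in aHepGHRkd, 899 with rIGF1 and 1032 with STAT5bCA. Rplp1, an acidic protein of the stalk that recruits elongation factors, stood at 946, 760, 700 and 965 TPM in group order. Rpl28 stood at 821, 679, 679 and 841 TPM. In all 3 genes the Control and STAT5bCA values were the higher pair.

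In the small subunit Rps2, a protein near the mRNA entry channel, had the highest level of any member, with 1082, 993, 962 and 1056 TPM in group order. Rps18, a protein of the 40S head, stood at 856, 699, 704 and 849 TPM. The lowest of the 80 was Rps15a, at 26.2, 22.8, 22.6 and 26.4 TPM. These are levels of mRNA, and reads shared with copies can enter them. In GENCODE M21 60 of the 84 genes have at least 1 pseudogene named after them, 298 in all, with 24 each for Rps12 and Rpl31. The sources used here do not say how reads that match several copies were assigned.

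**Figure D1:**
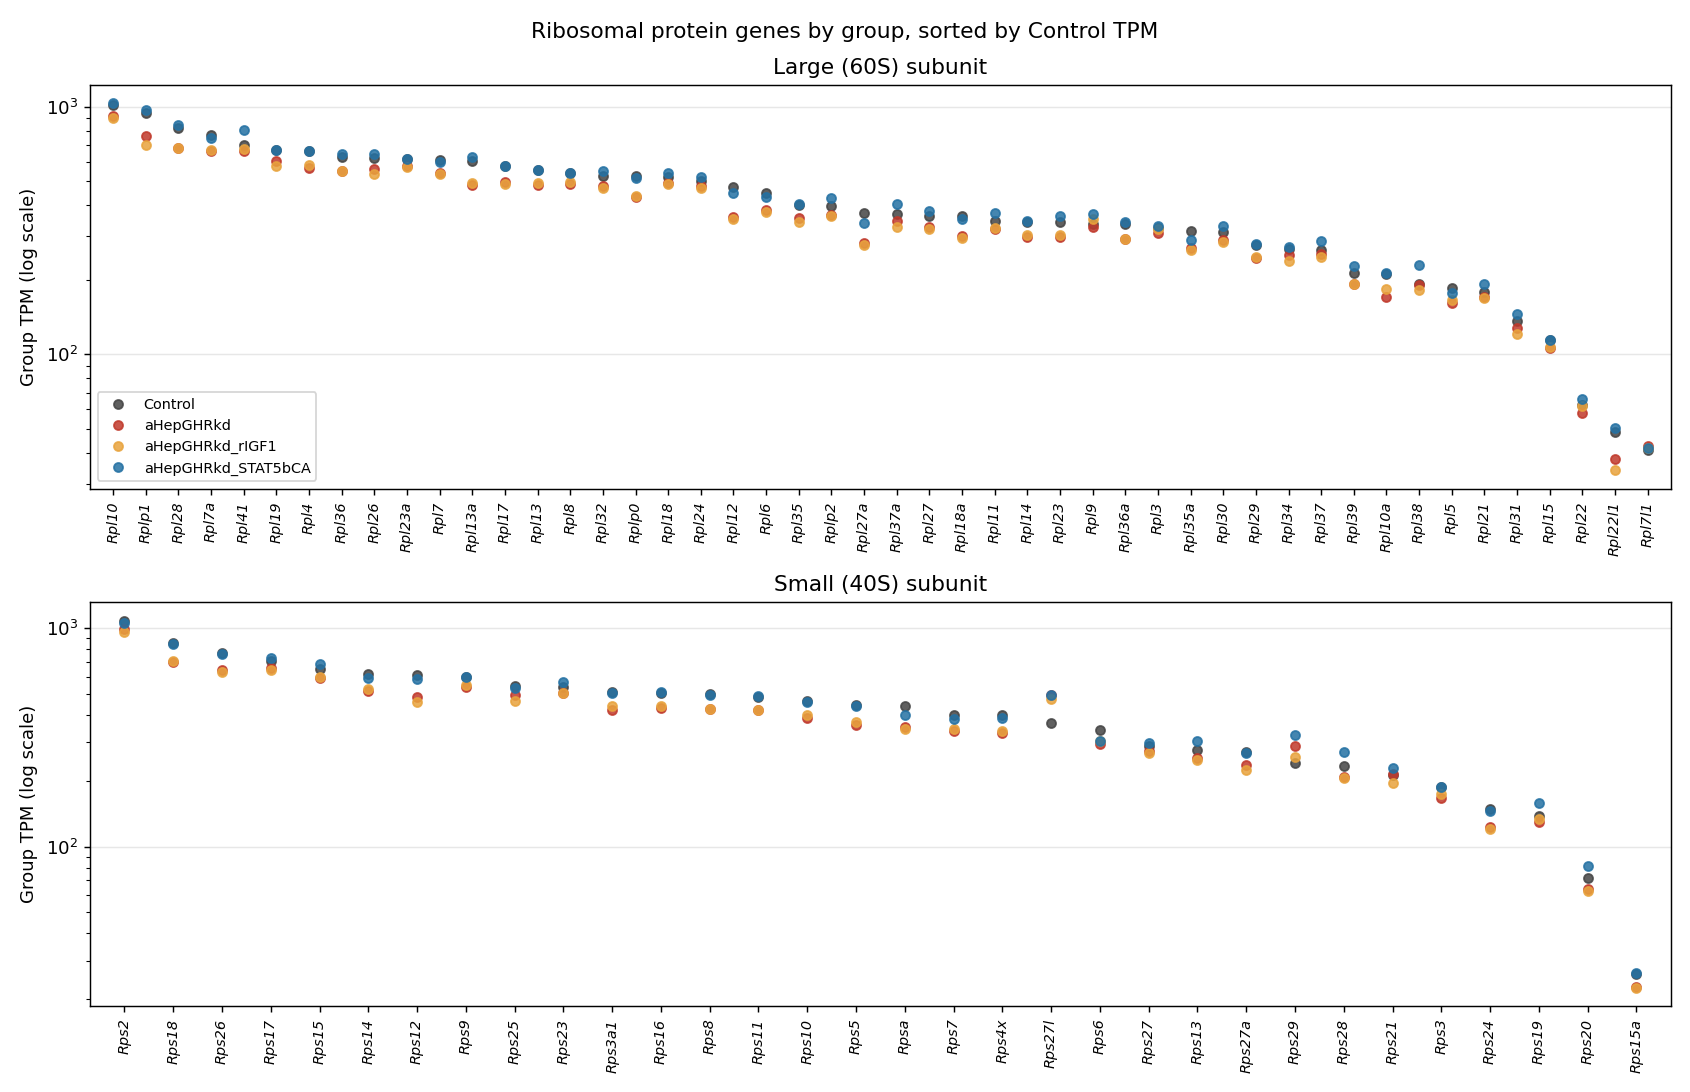
Group TPM (log axis) of the 48 large and 32 small subunit genes with a mean of at least 1 TPM, sorted by Control, 1 point per group. For most genes the Control and aHepGHRkd_STAT5bCA points lie together above the aHepGHRkd and aHepGHRkd_rIGF1 points, while Rps27l has Control (368 TPM) lowest.

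The 4 members under 1 TPM are named as paralogs, copies of another ribosomal protein gene. Rpl10l, known for its use in testis, was listed at 0 in every group. Rpl39l, also known from testis, was listed at 0 in Control and aHepGHRkd_rIGF1, at 0.0864 TPM in aHepGHRkd and at 0.0149 in aHepGHRkd_STAT5bCA. Rpl3l, known from striated muscle, stood between 0.174 and 0.306 TPM, and Rpl32l between 0.328 and 1.03 TPM. These levels allow no comparison between groups.

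As a whole the ribosomal protein mRNAs took 3.43% of all TPM in Control and 3.04% in aHepGHRkd, then 3.02% with rIGF1 and 3.50% with STAT5bCA. Relative to Control the last 3 sums were 0.885, 0.878 and 1.02. The share was therefore lower in both groups given Cre without STAT5bCA, and near Control in the group with STAT5bCA. Both subunits shared this order. The 60S genes took 2.04, 1.80, 1.79 and 2.09% of all TPM, and the 40S genes 1.39, 1.24, 1.23 and 1.41%. The 78 mitochondrial ribosomal protein genes, which build the separate ribosome of mitochondria, took 0.394% in Control and 0.420, 0.414 and 0.415% in the other groups. In liver as a bulk sample, fewer cells of a type and less RNA per cell cannot be told apart, and a share of TPM is relative to all other RNA.

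**Figure D2:**
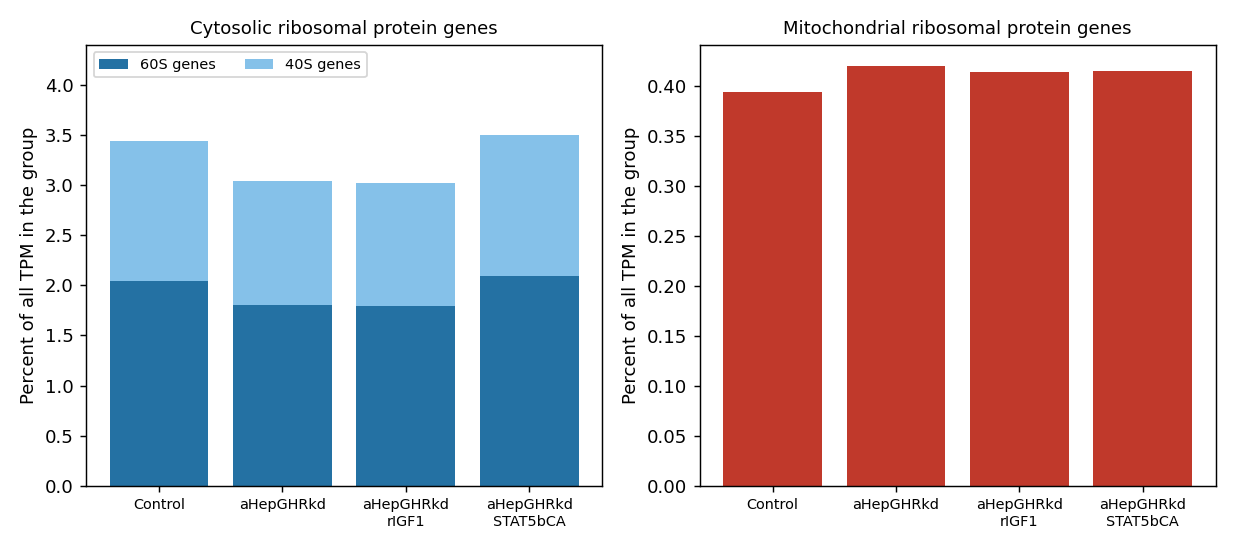
Bars give the percent of all TPM in each group taken by the cytosolic ribosomal protein genes (left, 60S and 40S stacked) and by the mitochondrial ribosomal protein genes (right), from 0. The cytosolic share is 3.43% in Control, 3.04 and 3.02% in aHepGHRkd and aHepGHRkd_rIGF1, and 3.50% in aHepGHRkd_STAT5bCA. There is 1 value per group and no error bar.

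Loss of GHR was compared with Control to ask what hepatocyte GH signalling does to liver expression. Most ribosomal protein genes were slightly lower in aHepGHRkd, but a single member passed the authors' test, and that one was higher. Of the 80 genes with at least 1 TPM, 76 had a deposited ratio under 1, against 43.8% of 10800 coding genes in the authors' deposited table. Here and below the coding genes were not matched to the members in level or length. The 80 had a median of 399 TPM in Control against 10.7 in the coding genes, and of 5 exons against 9. The median log2 ratio of the 80 was -0.18, against 0.03 over the coding genes, and ran from -0.42 to 0.42. The medians were -0.16 for the 48 large subunit genes and -0.20 for the 32 small subunit genes.

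By the authors' p under 0.05, 1 of the 84 genes was called, with 1 higher and 0 lower, against 4.48% of the 16448 detected coding features (2.06% higher and 2.42% lower). An adjusted p under 1 was given to 29 members, 28 of them lower, against 23.8% of the coding genes. Of the lower members, 1 had a p under 0.1, 6 under 0.2 and 16 under 0.5. None of the lower members passed the test by itself.

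Rps27l was the called gene. It is a paralog of the small subunit gene Rps27 and is known as a target of the tumour suppressor p53. On mm9 the table places it on the plus strand of chromosome 9, 66793893 to 66797329, with 6 exons and no overlapping feature. Its level was 368 TPM in Control against 495 in aHepGHRkd, 473 with rIGF1 and 496 with STAT5bCA. Control was the lowest of the 4 groups. In the authors' deposited table the rise in aHepGHRkd was 1.34-fold with an adjusted p of 0.0365 from edgeR.

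The lowest ratio belonged to Rpl12, a protein at the base of the stalk of the large subunit. It had 475, 358, 352 and 449 TPM in group order, a ratio of 0.749 for aHepGHRkd over Control (adjusted p = 0.0641, the authors' deposited table). Rpl27a, another large subunit protein, stood at 372, 282, 277 and 339 TPM, a ratio of 0.756 (adjusted p = 0.139, the authors' deposited table). Neither passed the test. In both genes, picked for a low ratio of aHepGHRkd over Control, the STAT5bCA group was closer to Control than to the other groups.

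Rpsa, the small subunit protein also known as the laminin receptor, stood at 441, 351, 345 and 398 TPM in group order, and its ratio of 0.789 had an adjusted p of 0.108 in the authors' deposited table. Rps12, a protein of the 40S beak, stood at 608, 483, 461 and 587 TPM, with a ratio of 0.790 and an adjusted p of 0.155 in the authors' deposited table. Rpl22l1, a paralog of Rpl22, had a ratio of 0.782 with an adjusted p of 1 in the authors' deposited table, at 48.4, 37.8, 34.0 and 50.3 TPM. These 3 genes also failed the test. All 3 members of the stalk had ratios under 1, with a median log2 ratio of -0.30.

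At the other end, Rps29, a zinc-binding small subunit protein, had 242, 288, 256 and 322 TPM in group order, with Control lowest. Its ratio for aHepGHRkd over Control was 1.19 with an adjusted p of 1 in the authors' deposited table. Rpl7l1 (1.03), Rps21 (1.01) and Rpl38 (0.989) came next by ratio in the authors' deposited table, each with an adjusted p of 1. Rpl38 is known from mouse embryos for the translation of Hox mRNAs.

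**Figure D3:**
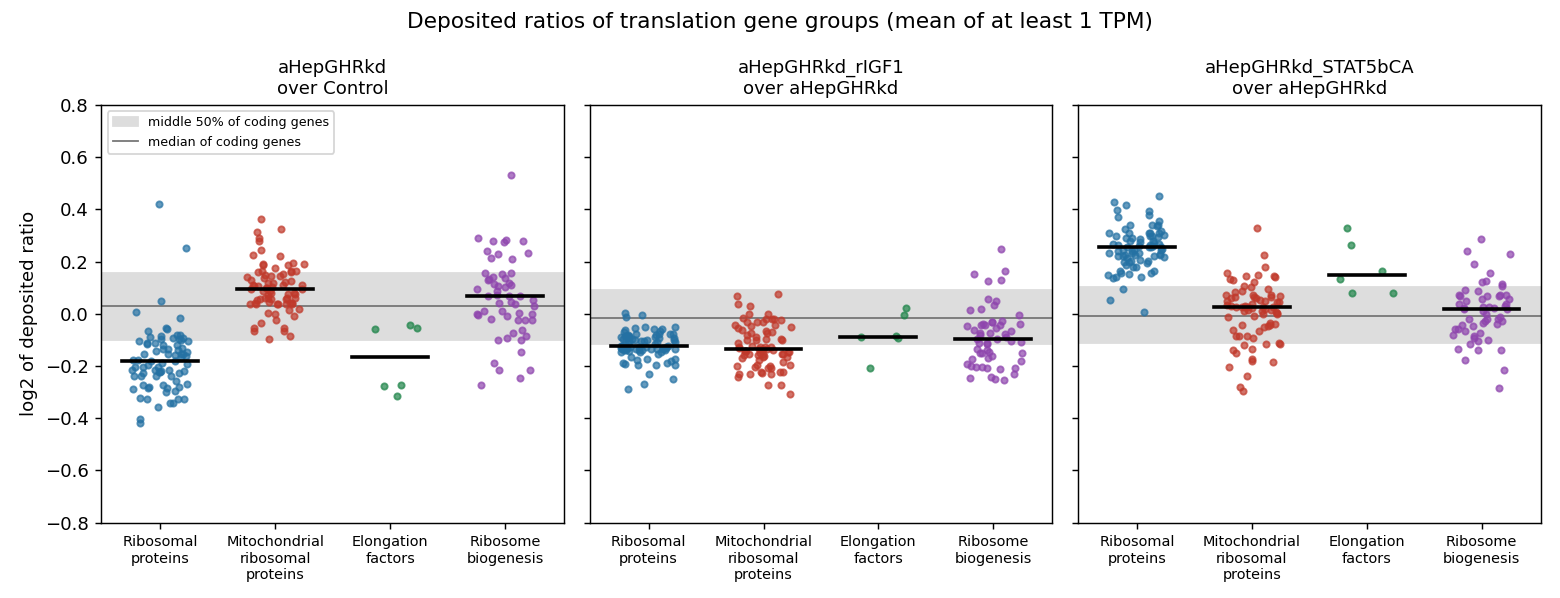
Each point is the log2 deposited ratio of 1 gene in the 3 comparisons of the authors' table, black bars are list medians, and the grey band holds the middle 50% of coding genes with a mean of at least 1 TPM. The ribosomal protein medians are -0.18, -0.12 and 0.26 from left to right, against 0.10, -0.13 and 0.03 for mitochondrial ribosomal proteins.

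Supplying rat IGF1 to mice with reduced hepatocyte GHR asks which responses follow IGF1 rather than GHR itself. No ribosomal protein gene was called in aHepGHRkd_rIGF1 over aHepGHRkd. By the authors' p under 0.05 the count was 0 of 84, against 0.0121% of 16564 detected coding features, which is 2 features. The unadjusted p of edgeR was not used here. The count of members with an adjusted p under 1 was also 0, against 1.81% of coding genes. The smallest and largest ratios in the authors' deposited table were 0.818 (Rps29) and 1.00 (Rpl10a), each with an adjusted p of 1.

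The size of this shift depends on the scaling. By the edgeR fold, as the authors' deposited table has it, 79 of the 80 genes lay under 1, against 54.2% of coding genes, with a median log2 ratio of -0.12. With the plain ratio of the 2 group TPM values 44 lay under 1 and 36 over 1, with a median log2 ratio of -0.014, whereas 27.9% of coding genes lay under 1. The median of all coding genes also moved, from -0.02 with the deposited ratio to 0.09 with the TPM ratio. Relative to that coding median the members' median was -0.11 with the deposited ratio and -0.099 with the TPM ratio, the latter over all members and added after seeing the data. Rplp1 had a ratio of 0.852 in the authors' deposited table, and Rps21, a small protein of the 40S body, one of 0.842. Rpl9 had a ratio of 0.997 and Rpl3, a protein at the peptidyl transferase centre, one of 0.967 in the same deposited table.

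Set against Control, for which the table gives no fold or p, the aHepGHRkd_rIGF1 group had a TPM ratio under 1 for 76 of the 80 genes, against 24.8% of coding genes. The median log2 TPM ratio was -0.18, against 0.14 over coding genes. The lowest TPM ratios were those of Rpl22l1 (0.703), Rplp1 (0.741), Rpl12 (0.742), Rpl27a (0.747) and Rps12 (0.759). The highest was that of Rps27l (1.29).

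Supplying active STAT5b asks which responses return when the transcription factor downstream of GHR is restored. Every one of the 80 ribosomal protein genes had a ratio over 1 in aHepGHRkd_STAT5bCA over aHepGHRkd, yet none was called. The 80 of 80 compare with 48.1% of coding genes in the authors' deposited table. The median log2 ratio was 0.26 (0.25 with the genes under 1 TPM that have a ratio), against -0.01 over coding genes, and the 80 ran from 0.006 to 0.45. The plain TPM ratio was under 1 for 1 of the 80 (Rpl7l1), against 63.7% of coding genes, and its median was 0.21 on the log2 scale. The medians of the deposited log2 ratio were 0.25 for the large and 0.26 for the small subunit genes.

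By the authors' p under 0.05, 0 of the 84 genes were called, against 2.76% of 16514 detected coding features. An adjusted p under 1 was given to 18 members, all of them higher, against 10.2% of coding genes, and 4 had a p under 0.5. The smallest was 0.254 for Rpl10a, with a ratio of 1.29 in the authors' deposited table. This large subunit gene had 212, 170, 184 and 212 TPM in group order. The STAT5bCA and Control values were the same to 3 digits.

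The 5 highest ratios in this comparison were those of Rpl22l1, Rpl13a, Rps28, Rps20 and Rplp1. Rpl13a, known in human monocytic cells for a role in silencing inflammatory mRNAs, stood at 603, 485, 492 and 629 TPM in group order. Its ratio of STAT5bCA over aHepGHRkd was 1.35 with an adjusted p of 0.422 in the authors' deposited table. Rps28 stood at 234, 208, 205 and 270 TPM, with a ratio of 1.33 and an adjusted p of 0.793 in the authors' deposited table. Rps20, a protein of the 40S head, stood at 71.9, 63.8, 62.8 and 81.2 TPM, with a ratio of 1.32 and an adjusted p of 0.550 in the authors' deposited table. In all 3 genes, picked for a high ratio with STAT5bCA, the STAT5bCA value was above the Control value, as in 53 of the 80 genes. For Rpl22l1 the ratio was 1.37 (adjusted p = 0.995) and for Rplp1 it was 1.32 (adjusted p = 0.666), both from the authors' deposited table.

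The smallest ratios were those of Rpl7l1 (1.00), Rps27l (1.04), Rps6 (1.07), Rps2 (1.10) and Rps21 (1.10), each with an adjusted p of 1 in the authors' deposited table. Rps6, the small subunit protein that S6 kinases phosphorylate, had 341, 295, 305 and 305 TPM in group order. Its STAT5bCA level was 0.893 of Control, the lowest such TPM ratio among the 80 genes. Rpsa (0.902) and Rpl27a (0.911) came next.

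Against Control, aHepGHRkd_STAT5bCA had a TPM ratio under 1 for 27 of the 80 genes and over 1 for 53, where 52.4% of coding genes lay under 1. The median log2 TPM ratio was 0.02, against -0.01 over coding genes. The highest TPM ratios were those of Rps27l (1.35), Rps29 (1.33), Rpl38 (1.19) and Rps19 (1.15), the last a small subunit gene mutated in human Diamond-Blackfan anaemia. Against aHepGHRkd_rIGF1 the STAT5bCA group had a TPM ratio under 1 for 2 of the 80 genes, against 73.5% of coding genes, and a median of 0.21 against -0.14 over coding genes, on the log2 scale. The aHepGHRkd group is shared by the 3 deposited comparisons, so they are not independent of each other.

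Some members are named as paralogs of another member, called the parent here, and were set beside it. Rps27l per Rps27 was 1.27 in Control and higher elsewhere, 1.81 in aHepGHRkd, 1.77 with rIGF1 and 1.66 with STAT5bCA, on the TPM scale. Rps27 itself stood at 289, 273, 268 and 299 TPM. Rpl22l1 per Rpl22 was 0.774, 0.656, 0.553 and 0.765 in the same order, with Rpl22 at 62.5, 57.7, 61.6 and 65.7 TPM. Rpl7l1, whose parent Rpl7 stood at 611, 539, 535 and 597 TPM, was at 0.0671, 0.0794, 0.0784 and 0.0699 of it. No test of these ratios was possible on group values. On mm9 Rps27 lies on the minus strand of chromosome 3, from 90016589 to 90017570. It shares this span with Rps27rt, at 482 TPM in Control. The level of Rps27, and with it the ratio of Rps27l to Rps27, is therefore uncertain.

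**Figure D4:**
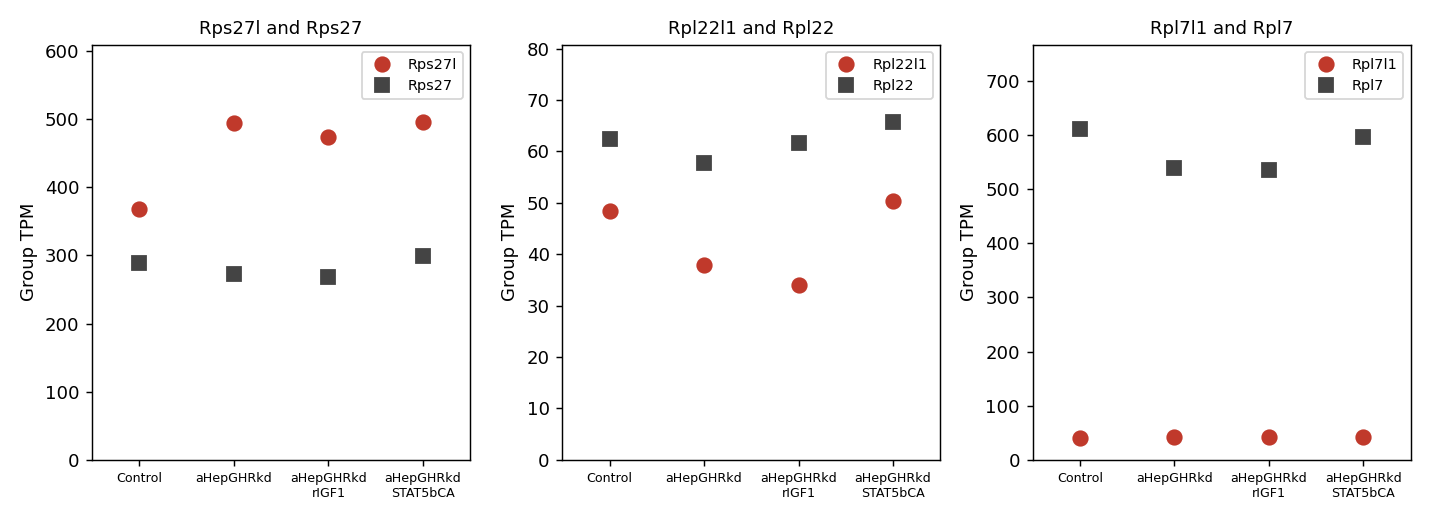
Group TPM (linear axes from 0) of 3 paralogs (circles) and their parent genes (squares), 1 value per group. Rps27l lies above Rps27 in every group and is lowest in Control (368 TPM). Rps27rt, which shares the span of Rps27 and is not drawn, stood at 482 TPM in Control, so the level of Rps27 is uncertain. Rpl22l1 is lowest in aHepGHRkd_rIGF1 (34.0 TPM), and Rpl7l1 lies between 41.0 and 42.8 TPM.

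Promoter sequences were read to see what the members share besides their names. RefSeq start sites (GRCm38.p6, 250 bases before and 50 after the start) were found for 64 of the 84 genes. The windows below hold the 40 bases before the start in lower case and the first 20 transcribed bases in capitals. They are shown for the called gene and its parent, for the 4 members with the lowest ratios of aHepGHRkd over Control, and for Rpl13a, which was high with STAT5bCA.
Rps27l, chr9:66946046-66946105, plus strand: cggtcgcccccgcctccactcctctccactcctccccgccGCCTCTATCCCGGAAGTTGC
Rps27, chr3:90213629-90213688, minus strand: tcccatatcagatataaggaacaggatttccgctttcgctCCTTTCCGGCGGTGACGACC
Rpl12, chr2:32961672-32961731, plus strand: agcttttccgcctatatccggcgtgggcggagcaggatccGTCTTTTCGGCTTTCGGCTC
Rpl27a, chr7:109519155-109519214, plus strand: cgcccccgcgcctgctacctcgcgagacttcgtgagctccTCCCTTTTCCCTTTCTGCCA
Rpl22l1, chr3:28805468-28805527, plus strand: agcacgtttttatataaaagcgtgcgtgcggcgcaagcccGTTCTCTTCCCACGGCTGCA
Rpsa, chr9:120127726-120127785, plus strand: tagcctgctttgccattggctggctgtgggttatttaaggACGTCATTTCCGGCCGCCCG
Rpl13a, chr7:45128726-45128785, minus strand: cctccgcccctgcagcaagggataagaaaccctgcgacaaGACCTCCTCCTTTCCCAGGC

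Transcripts that begin with pyrimidines, as TOP mRNAs do, were counted from these starts. In 17 of 64 members (26.6%) the first 5 transcribed bases were all C or T at a listed start, against 5.28% of 27025 genes and 1.45% of 69 mitochondrial ribosomal protein genes. Rpl27a and Rps27 are examples above, while the other 5 windows open with G or A. RefSeq starts can be a few bases off, so this count is of annotation and not of mapped transcripts.

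The ETS-family core CCGGAAG, searched on both strands of the 300 bases, was in 26 of 64 members (40.6%), against 9.93% of all genes and 37.7% of mitochondrial ribosomal protein genes. CTTTCC was in 33 (51.6% against 29.3%). CACGTG, the E-box that Myc and other factors can bind, was in 6 (9.38% against 8.09%). TTCNNNGAA, the spacing that STAT5 prefers, was in 3 (4.69% against 9.55%), namely Rpl35, Rpl4 and Rplp0, and in 1 gene a match overlapped the ETS core. The TATA box letters TATAAA were in 8 (12.5% against 15.7%), Rpl22l1 among them. The members with a pyrimidine start had a median log2 ratio for aHepGHRkd over Control of -0.22 (16 genes), and those without one of -0.16 (44 genes). Split by the ETS core, the medians were -0.15 for the 25 genes with it and -0.21 for the 35 without. Split by CTTTCC, they were -0.15 for the 31 with it and -0.21 for the 29 without. With and without, they were -0.18 and -0.18 for the E-box (6 genes with it) and the TATA box (7), and -0.24 and -0.17 for the STAT spacing (3). For STAT5bCA over aHepGHRkd the medians with and without a pyrimidine start were 0.27 and 0.25. They were 0.23 and 0.27 for the ETS core and 0.25 and 0.26 for CTTTCC. For the E-box they were 0.29 and 0.25, for the STAT spacing 0.28 and 0.26, and for the TATA box 0.30 and 0.25.

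Genes of neighbouring steps in protein synthesis were counted by the same rule. It called 4.48% of detected coding features in aHepGHRkd over Control, 0.0121% in aHepGHRkd_rIGF1 over aHepGHRkd and 2.76% in aHepGHRkd_STAT5bCA over aHepGHRkd. None of 8 elongation factor genes was called, and the 6 with at least 1 TPM had a median log2 ratio of -0.17 in aHepGHRkd over Control, -0.09 in aHepGHRkd_rIGF1 over aHepGHRkd and 0.15 in aHepGHRkd_STAT5bCA over aHepGHRkd. Of 16 other genes with TOP mRNAs, some of them these same elongation factors, none was called, 14 had a ratio under 1 in aHepGHRkd, and the medians were -0.16, -0.08 and 0.13. In the rIGF1 comparison the medians of both lists turned positive with the plain TPM ratio, at 0.02 and 0.03. In the other comparisons they lay on the same side of 0 as those of the ribosomal proteins under both scalings.

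The 39 initiation factor genes (medians 0.02, -0.05 and 0.05 in the same order) had 0 called, and so had 57 genes of ribosome assembly in the nucleolus (0.07, -0.10 and 0.02). With the plain TPM ratio the medians of both lists changed sign in the rIGF1 and STAT5bCA comparisons. Among 31 genes of RNA polymerases I and III, which make ribosomal RNA and 5S RNA, Polr1e rose in aHepGHRkd, 1.44-fold with an adjusted p of 0.0259 in the authors' deposited table. Of 78 mitochondrial ribosomal protein genes Mrps27 rose, 1.29-fold with an adjusted p of 0.0278 in the authors' deposited table, and 10 had a ratio under 1. Each of these 2 lists thus had 1 gene called higher in aHepGHRkd, where 2.06% of detected coding features were called higher. The median of the mitochondrial ribosomal protein genes in aHepGHRkd over Control was 0.10, where that of the cytosolic ribosomal proteins was -0.18.

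Among 22 genes that signal growth to ribosomes, 1 passed the test. The share of detected coding features called was 4.48% in aHepGHRkd over Control and 2.76% in aHepGHRkd_STAT5bCA over aHepGHRkd. The 1 gene was Myc, whose protein activates ribosomal protein and ribosomal RNA genes. Its level was 4.67, 2.13, 2.37 and 5.47 TPM in group order, low in the groups given Cre without STAT5bCA. The authors' deposited table gives a ratio of 0.449 for aHepGHRkd over Control (adjusted p = 0.00357) and of 2.68 for STAT5bCA over aHepGHRkd (adjusted p = 9.62e-09). For aHepGHRkd_rIGF1 over aHepGHRkd the ratio was 1.05 with an adjusted p of 1 in the authors' deposited table. The other 21 genes, Mtor and Larp1 included, were not called in any comparison. Whether Myc has a part in the ribosomal protein levels was not tested.

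Ribosomal proteins that are left unassembled can bind Mdm2 and so spare p53. Of 10 genes of that route and of p53 targets, 6 were called higher in aHepGHRkd, against 2.06% of detected coding features. The list was chosen with earlier results of these data known. The 5 with the highest ratios in the authors' deposited table were Phlda3 (4.25-fold, adjusted p = 4.19e-19), Cdkn1a (4.03-fold, adjusted p = 9.37e-24), Eda2r (2.64-fold, adjusted p = 3.29e-05), Gdf15 (2.51-fold, adjusted p = 1.04e-07) and Ccng1 (1.92-fold, adjusted p = 1.35e-10). Cdkn1a, the cell cycle inhibitor p21, stood at 11.8 TPM in Control and 47.9, 57.6 and 45.2 in the others. These 5 genes and Rps27l, the called member, all named because they were called higher in aHepGHRkd, each had their lowest level in Control. Trp53 itself stood between 18.8 and 20.7 TPM in all groups, and Mdm2 at 20.2, 25.5, 29.1 and 24.3, with an adjusted p of 1 and of 0.182 for aHepGHRkd over Control in the authors' deposited table. In STAT5bCA over aHepGHRkd 1 of the 10 rose, Eda2r, 1.73-fold with an adjusted p of 0.0233 in the authors' deposited table. In that comparison 2.76% of detected coding features were called in either direction. Whether unassembled ribosomal proteins play a part in the rises in aHepGHRkd was not tested. An effect of Cre cannot be told apart here from one of GHR loss.

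**Figure D5:**
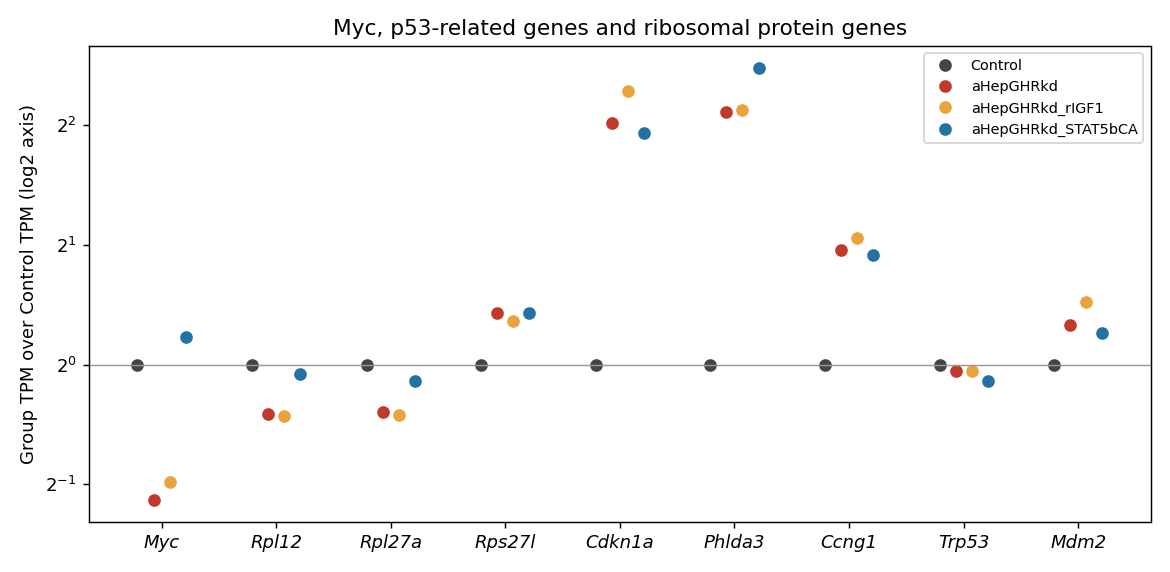
Group TPM over Control TPM (log2 axis) for Myc, 3 ribosomal protein genes and p53-related genes, 1 point per group. Of the ribosomal protein genes Rps27l is the called member. Rpl12 and Rpl27a have the lowest deposited ratios of aHepGHRkd over Control among the 80 members (log2 -0.42 and -0.40). The median of the 80 was -0.18. Myc is under Control in aHepGHRkd and aHepGHRkd_rIGF1 and above it in aHepGHRkd_STAT5bCA, while Rps27l, Cdkn1a, Phlda3 and Ccng1 are above Control in all 3 groups with Cre.

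Signals of other cells were set beside the members. The 9 erythroid markers summed to 680, 397, 792 and 658 TPM in group order. That sum counts 2 loci doubly, since Hbb-b1 and Hbb-bs nearly share a span in the table, as do Hbb-b2 and Hbb-bt. Alas2, the heme synthesis enzyme of red cell precursors, was called lower in aHepGHRkd, with a ratio of 0.595 and an adjusted p of 4.52e-09 in the authors' deposited table. It was called lower again in STAT5bCA over aHepGHRkd, with a ratio of 0.666 and an adjusted p of 0.00234 in the authors' deposited table. Alas2 stood at 96.3, 58.1, 54.5 and 37.2 TPM in group order, whereas the beta-globin genes, none called, were lowest in aHepGHRkd. The erythroid sum was highest in aHepGHRkd_rIGF1, where the ribosomal protein sum was 0.992 of that in aHepGHRkd. Among the other groups both sums were lowest in aHepGHRkd. Kupffer cell markers summed to 60.3 TPM in Control and to between 74.8 and 79.5 in the other groups, and hepatocyte markers to 100564 TPM in Control and to between 110875 and 117513 in the others. Stellate markers summed to 12.0, 13.5, 26.0 and 12.1 TPM in group order and cholangiocyte markers to 38.6, 47.0, 63.8 and 35.8, both highest with rIGF1. Of the hepatocyte markers Ttr was called higher (ratio 1.38, adjusted p = 0.00386) and Tat lower (ratio 0.683, adjusted p = 0.0482) in aHepGHRkd, both from the authors' deposited table. Asgr1 was called higher in STAT5bCA over aHepGHRkd, with a ratio of 1.44 and an adjusted p of 0.00366 in the authors' deposited table. Of detected coding features 4.48% were called in aHepGHRkd over Control and 2.76% in aHepGHRkd_STAT5bCA over aHepGHRkd. The part of these cell types in the ribosomal protein levels was not tested.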

How the data were processed

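Liver RNA-seq of 24 animals in 4 groups of 6 was taken from 1 summary table on the mouse build mm9. Libraries were polyA-selected, per the labels' protocols, and STAR, featureCounts and edgeR were used, per the submitters' processing notes, with versions and strand setting not given in the sources used here. Per the file headers the table lists 75798 exon-collapsed features, of which 75794 were read because 4 lines were empty. The TPM values were computed by the authors, 1 per group. The ratio between groups, a linear fold, was deposited by the authors and computed with edgeR, per the file headers. Its scaling differs from that of the TPM ratio. The p-value column was deposited by the authors without a stated adjustment. It was read as Benjamini-Hochberg adjusted, since 69174, 75054 and 72384 of its values are exactly 1.

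Coding features have an NM accession as gene type, alone or with an NR accession. A gene was called at a deposited p under 0.05. Medians use genes with a mean of at least 1 TPM, and no pseudocount was used except as an alternative (1 TPM). Python 3.11.15, pandas 2.3.3 and numpy 2.4.6 were used, and counting was tested on simulated data. A planned fit of edgeR to counts per library could not be made on group values, so the deposited p stands in for it, and SD, depth and intervals are not given.

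Named members are those called, the 5 highest and 5 lowest by Control TPM and by ratio in each comparison, and paralogs with their parents. Of other lists the called genes are named, up to 5 a direction. Rpl10a as smallest p, Rps19, Trp53, Mdm2, Mtor, Larp1 and the STAT-spacing genes were named after their values were seen. The members and lists were chosen with earlier results of these data known. Alternatives were other thresholds, TPM ratios, centring and member lists.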

Additional observations from a re-analysis of the deposited data

How the results depend on the processing

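The count of called members for aHepGHRkd over Control was 1. It became 0 at p under 0.01, with a fold of at least 1.5 added, and without the 7 paralogs, and 2 at p under 0.1. It was also 0 with gene type NM alone, an alternative chosen after seeing the data, since Rps27l has NM and NR accessions. Counts for the other 2 comparisons were 0 throughout. The median log2 ratio of all members with a ratio, including those under 1 TPM, moved by more than 0.05, the tolerance used for want of a replicate spread, in 5 of 36 settings and never changed sign. For aHepGHRkd_rIGF1 over aHepGHRkd it went from -0.12 to -0.014 with the TPM ratio and -0.013 with log2(TPM + 1), but was -0.099 with the TPM ratio relative to the coding median, an alternative chosen after seeing the data. For STAT5bCA over aHepGHRkd it went from 0.25 to 0.20 with log2(TPM + 1), and to 0.20 with the TPM ratio, which also lies more than 0.05 under the 0.26 of the 80 genes. Relative to the coding median it was -0.31 for rIGF1 over Control and 0.35 for STAT5bCA over rIGF1. The cause of these moves was not tested. In percent of coding TPM the members' sum was 3.82, 3.37, 3.36 and 3.88 for Control, aHepGHRkd, rIGF1 and STAT5bCA. Without the 100 highest other features it was 6.44, 5.68, 5.54 and 6.52. No paired analysis was possible because the table has no value per animal, and for the same reason no replicate could be left out. Depth is unknown, so what it limits could not be given.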

Other observations

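Rack1 and Rpl36al encode ribosomal proteins but fall outside the name rule. Rack1, a small subunit protein that also docks signalling kinases, stood at 352, 304, 309 and 334 TPM in group order (Control, aHepGHRkd, rIGF1, STAT5bCA). Rpl36al, a copy of Rpl36a, stood at 395, 406, 370 and 430 TPM. Neither was called, with ratios for aHepGHRkd over Control of 0.856 and 1.02 in the authors' deposited table.

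Several other rows are named after ribosomal proteins, at the same place or elsewhere. Rpl34-ps1, a row of coding type that overlaps Rpl34, stood at 442 TPM in Control, where Rpl34 stood at 265. Rps27rt stood at 482 TPM, where Rps27 stood at 289, and both had a ratio of 0.939 for aHepGHRkd over Control in the authors' deposited table. Rps4l, a noncoding row, stood at 43.4, 35.6, 30.3 and 33.1 TPM in group order.

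Outside the members, 1007 coding genes with at least 100 TPM were ranked by how close their 4 group values, each over their own mean, lay to the members' median profile of 1.06, 0.934, 0.931 and 1.08. The nearest was Aldh9a1 at 178, 157, 159 and 180 TPM, followed by Ssr4 at 142, 123, 121 and 144 TPM and Prodh2 at 223, 196, 189 and 227 TPM. This is a description over 4 values per gene.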
